A study of Mus musculus with 48 samples.

Results

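The 7 genes Tubb3, Stmn2, Nefm, Nefl, Tuba1a, Tubb2b and Sox11, which are commonly read as neuronal genes, were followed in mouse embryonic stem cells (ESCs) during their induction toward gonadal somatic cells and in the gonads themselves. They were chosen by name, and the choice was made with values of the induced cells already known. Their levels in the single cells, and the comparison of induced cells with the gonad, are therefore given as a description with no test. Which of these values were known is not stated in the sources used here. Symbols were matched in a table of counts (7 of 22173 genes) and in a table of FPKM (6 of 13682 genes; Nefl is not listed there). FPKM is fragments per kilobase of transcript, scaled to the size of the library. Ensembl identifiers were matched in the table of single cells (7 of 32285 genes).

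ESCs were grown on inactivated mouse embryonic fibroblasts, which were removed by adherence before the induction. The cells then received vitamin C (Vc), AM580, which is an agonist of the retinoic acid receptors, or both agents together (V580). Libraries of Con, the control, and of Vc, AM580 and V580 were made at 24 h and 48 h (2 libraries each). Those of V580 were also made on days 4, 6, 8 and 10 (3 libraries each). In another assay the study defines Con as ESCs induced without the molecules. For the libraries used here it names a control from the start of induction. The labels, which give Con at 24 h and 48 h, were followed. A single V580 day 6 sample was profiled as single cells on the 10x platform. The study describes this sequencing as done in triplicate, and how many cultures the sample holds is not given in the sources used here. The gonadal references were E12.5_GC (3 libraries, FPKM) and a count series of gonadal somatic cells (2 libraries each) from embryos of E12.5, E13.5 or E16.5 and from ovaries of 6-week-old mice (P6w). All samples carry the strain label C57BL/6, and the gonads are labelled female. The gonadal fractions were depleted of SSEA1+ cells and not selected for a somatic marker, so other cell types of the gonad can be in them. Whether animals were pooled is not given in the sources used here, and nothing says that the 2 or 3 libraries of a group came from separate cultures or animals, so the p values may measure technical spread only.

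The products of these genes are parts of the neuronal cytoskeleton or of its control. Tuba1a, Tubb2b and Tubb3 encode tubulins, which pair as alpha and beta chains and polymerize into microtubules. Tubb3 is the beta-tubulin used most often as a label of young neurons, while Tuba1a and Tubb2b are abundant in neurons and also made by many dividing embryonic cells. Nefm and Nefl encode the middle and light chains of the neurofilament, the intermediate filament of axons. Stmn2 encodes a stathmin family protein of growth cones that binds tubulin. Sox11 is a transcription factor of the SoxC group, which is active in immature neurons and also in mesenchyme and epithelia of the embryo.

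The tubulin genes are so similar that reads can be assigned to the wrong copy. In GRCm38 with the GENCODE vM21 annotation, Tubb3 lies at chr8:123411424-123422015 on the plus strand, Tubb2b at chr13:34126748-34130466 on the minus strand and Tuba1a at chr15:98949837-98953703 on the minus strand. The coding sequence of Tuba1a was identical to that of Tuba1b at 98.3% of bases and to that of Tuba1c at 97.2%. Tubb2b and Tubb2a were 96.5% identical, whereas Tubb3 was 86.6% identical to its closest relative of those compared, Tubb6. The last 60 coding bases of 3 beta-tubulins, stop codon included, are shown because they show how little tells Tubb2b and Tubb2a apart and how far Tubb3 differs from both. Capitals mark the bases that differ from Tubb2b after alignment.
Tubb2b: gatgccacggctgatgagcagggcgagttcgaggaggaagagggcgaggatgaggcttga
Tubb2a: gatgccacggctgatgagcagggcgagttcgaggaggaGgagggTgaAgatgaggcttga
Tubb3: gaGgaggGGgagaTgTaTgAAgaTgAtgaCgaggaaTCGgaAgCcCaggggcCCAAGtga
Of these 60 bases, Tubb2a shared 57 with Tubb2b and Tubb3 shared 38. Over the longest transcript, 65.8% of the 100-base windows of Tuba1a and 27.7% of those of Tubb2b also stood, base for base, in the transcript of another gene. No window of Tubb3, Stmn2 or Sox11 did. Values of Tuba1a and Tubb2b are uncertain to that extent.

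The other members lie at chr3:8509360-8561606 (Stmn2, plus strand) and chr12:27334264-27342574 (Sox11, minus strand). Nefl (chr14:68083863-68089095, plus strand) lies within the span of Nefm (chr14:68082590-68124846, minus strand), and 1108 exonic bases are shared between the neighbours on opposite strands. Whether the libraries of bulk RNA kept strand is not given in the sources used here, so reads from these bases cannot be told apart in the counts.

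The 8 stage libraries held 12694769 to 22259044 counted reads. The FPKM libraries came to an estimated 16443000 to 28313000 fragments, read back from the steps of their low values. Both E12.5 count libraries, labelled female, held reads of the Y-linked gene Ddx3y (97 and 103 counts, at most 4 in the other 6 libraries), and both E13.5 libraries held Alb, a liver gene, at 935 and 738 counts (at most 27 elsewhere). Every comparison with E12.5 or E13.5 rests on these libraries. Red cell genes were high in the gonads: 2 listed in the FPKM table summed to 982.5 to 4108 FPKM in E12.5_GC and to at most 0.7387 FPKM in any cultured library. Their part in the results was not tested.

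At 24 h and 48 h the 6 members were expressed in Con and in every treatment, and no treatment changed any of them by 2-fold. The call used for FPKM was a BH adjusted p below 0.05 and a change of at least 2-fold on the log2(FPKM+1) scale. None of the 6 members reached it for Vc, AM580 or V580 against Con of the same time, where 0.0846%, 0.404% and 0.695% of all genes tested did so at 24 h and 0.0470%, 3.23% and 3.18% at 48 h. By the adjusted p alone, 5 of 6 members differed between V580 and Con at 24 h and 6 of 6 at 48 h, against 29.0% and 57.1% of all genes tested. Of the members that passed in V580 against Con, Tubb2b was higher and the others were lower at both times. Nefm, which did not pass at 24 h, stood at a mean of 3.998 FPKM in V580 and 3.82 FPKM in Con.

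Tubb2b was the member that rose. It stood at 78.1 and 84.3 FPKM in Con, 91.4 and 86.3 in Vc, 109.8 and 116 in AM580 and 120.0 and 121 in V580 at 24 h. At 48 h it stood at 64.7 and 66.5 FPKM in Con, 72.2 and 71.1 in Vc, 101 and 107 in AM580 and 104 and 105 in V580. The AM580 and V580 libraries were all above those of Con and Vc at the same time. The difference V580 − Con was 0.57 ± 0.05 (SE) on the log2(FPKM+1) scale at 24 h (limma-trend, adjusted p = 3.19e-07) and 0.66 ± 0.05 at 48 h (adjusted p = 1.68e-08). AM580 alone gave 0.47 (adjusted p = 4.17e-06) and 0.66 (adjusted p = 1.84e-08). Its near-identical relative Tubb2a moved the same way at 48 h, from 14.7 FPKM in Con to 36.3 FPKM in V580 (log2 difference 1.25), and reads shared between the pair cannot be separated here.

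The other tubulins fell by small amounts. Tuba1a stood at 161 and 199 FPKM in Con and 130.0 and 124 in V580 at 24 h, and at 225 and 233 against 184 and 184 at 48 h. The libraries of V580 were below those of Con at both times, by 0.49 ± 0.07 on the log2 scale at 24 h (limma-trend, adjusted p = 0.00012) and 0.32 ± 0.07 at 48 h (adjusted p = 0.00167). With quantile normalization the 48 h difference was -0.16 (adjusted p = 0.0596). Tubb3 stood at 11.6 and 12.9 FPKM in Con and 9.51 and 9.63 in V580 at 24 h, and at 19.8 and 17.8 against 14.1 and 16.8 at 48 h. The log2 differences of Tubb3 were -0.32 ± 0.09 (limma-trend, adjusted p = 0.0148) and -0.27 ± 0.09 (adjusted p = 0.0184), and both calls were lost when single libraries were left out. Without Con_24h replicate 2, V580_24h replicate 1 or V580_24h replicate 2 the adjusted p at 24 h was 0.127, 0.0723 and 0.0617, and without Con_48h replicate 1 or V580_48h replicate 1 that at 48 h was 0.148 and 0.219.

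Stmn2 was the member with the largest fall in V580 at 48 h, and it was also lower with either agent alone. In AM580 at 48 h the largest fall was that of Sox11. Stmn2 stood at 35.0 and 38.1 FPKM in Con, 36.0 and 33.4 in Vc, 33.1 and 32.0 in AM580 and 30.8 and 31.2 in V580 at 24 h. At 48 h it stood at 8.92 and 8.73 FPKM in Con, 5.96 and 6.09 in Vc, 6.98 and 7.08 in AM580 and 4.51 and 4.43 in V580. None of the 4 groups overlapped with another at 48 h, and the levels fell in the order Con, AM580, Vc and V580. The log2 difference from Con at 48 h was -0.48 ± 0.05 for Vc (limma-trend, adjusted p = 2.78e-05), -0.29 ± 0.05 for AM580 (adjusted p = 0.000154) and -0.85 ± 0.05 for V580 (adjusted p = 2.45e-09). Stmn2 was the only member with an adjusted p below 0.05 for Vc against Con at 48 h, where 12.4% of all genes tested passed, and no member passed at 24 h (13.6% of all genes tested). In V580 against AM580 at 48 h it differed by -0.56 ± 0.05 (adjusted p = 2.16e-06).

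Sox11 fell with AM580 and V580 at both times. It stood at 5.01 and 5.17 FPKM in Con, 4.06 and 4.54 in Vc, 3.78 and 3.95 in AM580 and 3.23 and 3.26 in V580 at 24 h. At 48 h it stood at 9.01 and 8.16 FPKM in Con, 8.60 and 7.84 in Vc, 5.43 and 5.10 in AM580 and 4.70 and 5.00 in V580. The Vc libraries overlapped with Con at 48 h, and those of AM580 and V580 lay below both. The log2 differences of V580 from Con were -0.52 ± 0.07 (limma-trend, adjusted p = 3.33e-05) and -0.71 ± 0.07 (adjusted p = 4.65e-07), and those of AM580 were -0.33 (adjusted p = 0.00348) and -0.61 (adjusted p = 2.21e-06). Nefm was low, at 1.36 to 4.89 FPKM over these 16 libraries. It stood at 2.14 and 2.58 FPKM in Con and 1.76 and 1.36 FPKM in V580 at 48 h, a log2 difference of -0.39 ± 0.09 (adjusted p = 0.00258).

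By the adjusted p alone, AM580 differed from Con in 4 of 6 members at 24 h and 3 of 6 at 48 h, against 14.8% and 57.0% of all genes tested. Of the 4 at 24 h, Stmn2 (-0.16, limma-trend, adjusted p = 0.0389) and Tuba1a (-0.28, adjusted p = 0.0139) rested on single libraries, since their adjusted p without Con_24h replicate 2 was 0.329 and 0.165. They also rested on AM580_24h replicate 2, without which the limma-trend adjusted p was 0.227 and 0.120, and Stmn2 on AM580_24h replicate 1 (adjusted p = 0.0894). V580 and AM580 differed in none of 6 members at 24 h, where 14.8% of all genes tested did, and in 4 of 6 at 48 h, where 19.2% did. Of those 4, only Stmn2 passed without each library in turn. Tubb3 (-0.28, adjusted p = 0.0429), Nefm (-0.29, adjusted p = 0.0417) and Tuba1a (-0.23, adjusted p = 0.0385) came to at most 0.358, 0.315 and 0.154 when AM580_48h or V580_48h replicates were left out. V580 and Vc differed in 5 of 6 members at each time, against 16.9% and 53.8% of all genes tested, with Nefm as the exception at both. No member passed the test of the interaction between Vc and AM580, which asks whether the effect of both agents differs from the sum of their single effects and which 0.0376% of all genes tested passed at 24 h and 3.61% at 48 h.

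**Figure D1:**
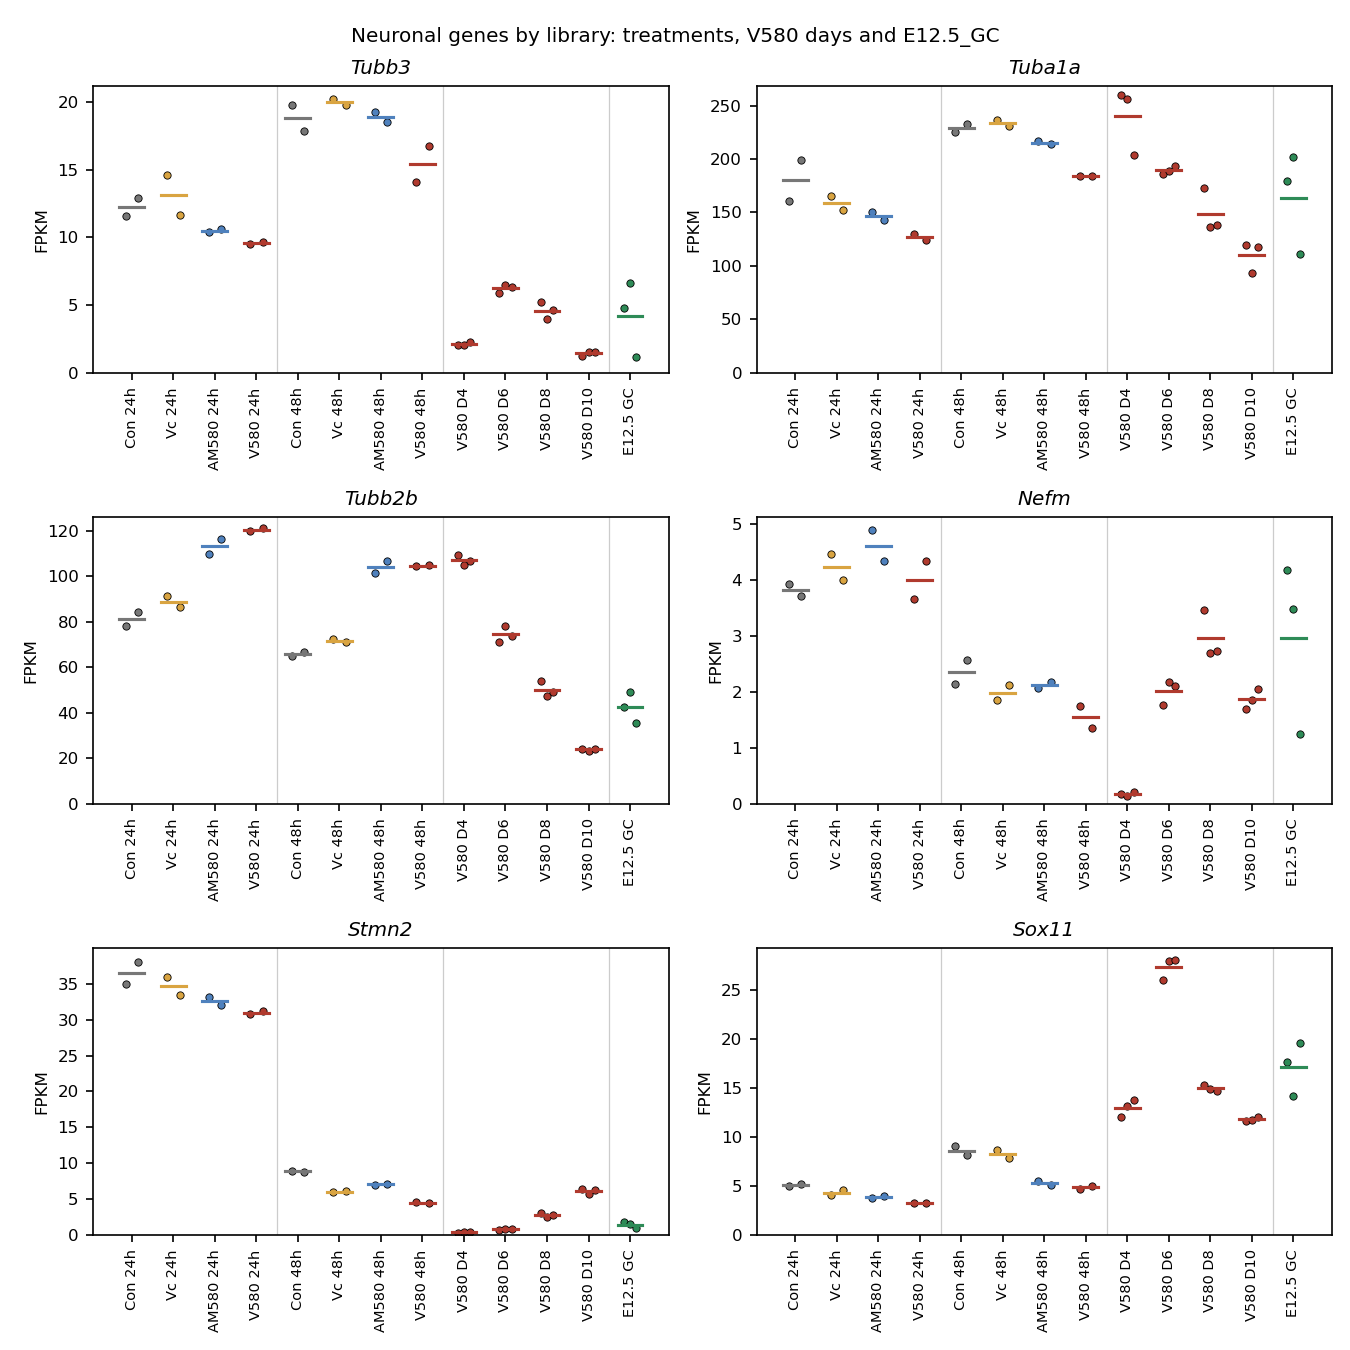
FPKM of the 6 listed members, 1 panel per gene, in the libraries of Con, Vc, AM580 and V580 at 24 h and 48 h, of V580 on days 4 to 10 and of E12.5_GC; each point is 1 library and each line a group mean (2 or 3 libraries). Stmn2 runs from 30.8 to 38.1 FPKM at 24 h, at or below 0.439 FPKM on V580 day 4 and up to 6.41 FPKM on day 10, while Sox11 is highest on day 6 and Tubb2b falls from day 4 to day 10.

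In Con itself Stmn2 changed by more between 24 h and 48 h than with any treatment at a given time. Between 24 h and 48 h in Con it fell from a mean of 36.5 ± 2.2 to 8.82 ± 0.13 FPKM (SD, n = 2 each), a 4.141-fold lower level and a log2 difference of -1.93 ± 0.05 (limma-trend, adjusted p = 1.92e-13). As a sum, genes of interstitial cells and fibroblasts fell in the same libraries, where 8 of them came to 113.9 to 121.4 FPKM at 24 h and 29.62 to 31.34 FPKM at 48 h. Dcn, which is 1 of the 8, rose instead (log2 difference 1.05, limma-trend, adjusted p = 1.33e-09). The part of these genes in the levels of Stmn2 was not tested. Stmn2 was the 1 member of 6 called at 2-fold, against 7.72% of all genes tested. By the adjusted p alone all 6 members differed, against 66.0% of all genes tested. Sox11 (0.65), Tubb3 (0.58) and Tuba1a (0.35) were higher at 48 h, and Nefm (-0.52) and Tubb2b (-0.30) were lower, with limma-trend adjusted p between 5.77e-07 and 0.000503. Whether an effect at 48 h differed from that at 24 h was tested in the same model, and 1 of 6 members passed for Vc (2.90% of all genes tested), 2 of 6 for AM580 (35.0%) and 2 of 6 for V580 (33.9%). Stmn2 passed for Vc and for V580, with a larger fall at 48 h in each.

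Among 36 further pan-neuronal genes, listed with the members already known, 16 could be tested. Between Con at 24 h and Con at 48 h, 5 of them rose and 3 fell at 2-fold, against 7.72% of all genes tested. Their median log2 difference was 0.60, against 0.0017 over all genes tested. Ina, an internexin of axonal intermediate filaments, rose from 15.5 ± 0.7 to 33.6 ± 1.1 FPKM, and Prph, the intermediate filament peripherin, rose from 3.58 ± 0.60 to 19.5 ± 0.7 FPKM (SD, n = 2). Mapt, which encodes the microtubule-binding protein tau, fell by 2.08 on the log2 scale, and the guidance protein gene Dpysl3 fell by 1.39. Pluripotency genes were high in the same libraries, with a sum of 6 genes at 1047 to 1067 FPKM in Con and 494.3 to 497.4 FPKM in V580 at 48 h.

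The 48 h and day 4 libraries of V580 were fitted in separate models and not tested against each other. Whether they were made together is not given in the sources used here. Between them Stmn2 was 12.93-fold lower, Nefm 8.575-fold lower and Tubb3 7.209-fold lower on day 4. Sox11 was 2.677-fold higher. Tuba1a and Tubb2b, at 1.305 and 1.024 times their 48 h level, differed least.

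From V580 day 4 to day 10 the members parted. Nefm and Tubb3 rose by day 6, Stmn2 rose at each step and was highest on day 10, Sox11 peaked on day 6, and Tubb2b fell at each step. In the bulk libraries, fewer cells that express a gene and less RNA of it per cell cannot be told apart. The number of members called at 2-fold was 3 of 6 for day 6 against day 4 (5.08% of all genes tested), 1 of 6 for day 8 against day 6 (2.55%), 2 of 6 for day 10 against day 8 (1.29%) and 4 of 6 for day 10 against day 4 (12.3%). By the adjusted p alone, 5, 3, 4 and 4 of the 6 members passed, against 44.9%, 41.1%, 34.5% and 64.5% of all genes tested. Since the members were chosen with values of induced cells known, these counts describe them and do not test them as a set.

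Nefm stood at 0.182, 0.147 and 0.216 FPKM on day 4, 1.76, 2.18 and 2.11 on day 6, 3.46, 2.69 and 2.73 on day 8 and 1.70, 1.86 and 2.05 on day 10. The day 4 libraries lay below all others, and no libraries of days 8 and 10 overlapped. The mean level on day 6 was 11.09-fold that of day 4, which on the log2(FPKM+1) scale is a difference of 1.35 ± 0.21 (limma-trend, adjusted p = 0.000124). Since the added 1 compresses low values, whole fragments recovered from the FPKM gave a log2 difference of 3.48 for the same step (edgeR, adjusted p = 3.97e-06). Later steps of Nefm did not pass (adjusted p = 0.161 and 0.111).

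Tubb3 stood at 2.05, 2.08 and 2.30 FPKM on day 4, 5.92, 6.48 and 6.33 on day 6, 5.20, 3.95 and 4.62 on day 8 and 1.25, 1.57 and 1.52 on day 10. It was thus raised on days 6 and 8 only, and its day 10 libraries were the lowest of all 12. The rise to day 6 was 1.21 ± 0.30 (limma-trend, adjusted p = 0.00456) and the fall from day 8 to day 10 was -1.19 ± 0.30 (adjusted p = 0.00726). Sox11 stood at 11.997, 13.2 and 13.8 FPKM on day 4, 26.05, 27.9 and 28.02 on day 6, 15.3, 14.9 and 14.7 on day 8 and 11.6, 11.7 and 12.03 on day 10. The day 6 libraries stood apart from all others, with a rise of 1.02 ± 0.09 from day 4 (adjusted p = 3.63e-07) and a fall to day 8 of -0.83 ± 0.09 (adjusted p = 5.18e-06). Without V580_D4 replicate 1 the rise of Sox11 was 0.97, just under 2-fold.

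Stmn2 stood at 0.251, 0.346 and 0.439 FPKM on day 4, 0.666, 0.779 and 0.793 on day 6, 3.04, 2.52 and 2.69 on day 8 and 6.41, 5.62 and 6.28 on day 10. Each day's libraries lay above all those of the day before. Day 10 was 17.67-fold above day 4, a log2(FPKM+1) difference of 2.40 ± 0.11 (limma-trend, adjusted p = 6.08e-11) and a log2 difference of 4.16 on the recovered fragments (edgeR, adjusted p = 2.31e-10). The step from day 4 to day 6 was 0.38 on the log2(FPKM+1) scale (adjusted p = 0.00939) and 1.11 on the recovered fragments (edgeR, adjusted p = 0.00123), and with quantile normalization it did not pass (0.22, adjusted p = 0.111). The step from day 6 to day 8 was 1.10 ± 0.11 (adjusted p = 1.62e-06) and that from day 8 to day 10 was 0.92 ± 0.11 (adjusted p = 1.64e-05), which is under 2-fold here and 1.15 on the recovered fragments. Genes of interstitial cells and fibroblasts moved beside Stmn2: all 8 of them, collagens included, summed to 69.86 to 81.43 FPKM on day 4, 184.5 to 193.8 on day 6, 538.5 to 682.2 on day 8 and 1366 to 1681 on day 10. Their part in the levels of Stmn2 was not tested here either.

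The abundant tubulins fell. Tubb2b stood at 109, 105 and 107 FPKM on day 4, 71.2, 78.3 and 73.9 on day 6, 54.1, 47.2 and 49.0 on day 8 and 24.2, 23.3 and 24.2 on day 10. Each day lay below the one before without overlap, and day 10 was 4.481-fold below day 4 (log2 difference -2.12 ± 0.09, limma-trend, adjusted p = 5.20e-11). The last step alone was -1.03 ± 0.09 (adjusted p = 1.68e-06), and -0.98 without V580_D8 replicate 1. Tuba1a stood at 259.8, 256 and 204 FPKM on day 4, 186, 189 and 193 on day 6, 173, 136 and 138 on day 8 and 119.7, 93.3 and 117 on day 10. No single step of Tuba1a passed the test, whereas day 10 against day 4 did (-1.12 ± 0.18, adjusted p = 8.59e-05). With quantile normalization the steps to day 8 and to day 10 also passed by the adjusted p (0.00615 and 0.00187), at -0.45 and -0.56. Of the 11 further tubulin genes tested, none was called between days 10 and 4, where 12.3% of all genes tested were. By the adjusted p alone 1 was higher and 8 were lower, against 64.5% of all genes tested.

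The other pan-neuronal genes did not move as one. Of the 16 tested, 2 rose and 2 fell at 2-fold from day 4 to day 6, against 5.08% of all genes tested. From day 4 to day 10, 4 rose and 4 fell, against 12.3%. The median log2 differences were 0.08 and -0.07, against -0.0096 and -0.024 over all genes tested. Ncam1, a neural cell adhesion molecule that mesenchyme also makes, rose from a mean of 2.35 to 28.4 FPKM between days 4 and 10. Prph rose from 14.7 to 43.2 FPKM over the same days, but was lower on day 6. Its log2 difference from E12.5_GC, not tested, was 3.27 on day 4, 1.63 on day 6 and 4.77 on day 10. Gng3, a neuronal G protein subunit, fell from 8.73 to 0.518 FPKM, and Uchl1, an abundant neuronal deubiquitinase, fell by 1.73 on the log2 scale.

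Against E12.5_GC the induced cells lay on both sides, given here without a test. Sox11 stood at 17.6, 14.1 and 19.6 FPKM in E12.5_GC, so that day 6 was above the gonad, day 8 overlapped with it and days 4 and 10 were below. Stmn2 stood at 1.73, 1.45 and 0.939 FPKM, below days 8 and 10 and above days 4 and 6. Tubb2b stood at 42.4, 49.2 and 35.7 FPKM, which only day 8 overlapped, with days 4 and 6 higher and day 10 lower. Tubb3 stood at 4.76, 6.64 and 1.20 FPKM and Nefm at 4.18, 3.48 and 1.25 FPKM. These ranges were wide because replicate 3 was low, and every day of Tubb3, and days 6, 8 and 10 of Nefm, fell within or across them. Nefm on day 4 was 16.35-fold below the mean of the gonad. Tuba1a stood at 179, 202 and 111 FPKM, which days 6, 8 and 10 overlapped. The 10 gonadal somatic genes summed to 795.2 to 993.6 FPKM in E12.5_GC and to 78.69 to 235.0 FPKM over the V580 days.

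Over the stages of the gonad in vivo, 6 of the 7 members were lower at 6 weeks than at E12.5 in CPM (reads of a gene per 1000000 counted reads), and Tubb3 was higher. In the stage table a gene was called at a BH adjusted p below 0.05 with edgeR. P6w differed from E12.5 in 6 of 7 members, 1 higher and 5 lower (52.9% of all genes tested), and from E16.5 in 6 of 7 (56.1%). E13.5 differed from E12.5 in 4 of 7 members (45.9%), E16.5 from E12.5 in 5 of 7 (37.6%) and E16.5 from E13.5 in 5 of 7 (54.1%). TMM scaling shifted all fitted differences from E12.5 upward relative to CPM, by 0.329 on the log2 scale for E13.5, 0.0656 for E16.5 and 0.227 for P6w. Differences also ran with gene length: over 16169 genes the Spearman rho of the log2 difference with exon length was -0.494 for E13.5 against E12.5 and 0.335 for E16.5 against E13.5, and between -0.0812 and -0.0081 for the other stage comparisons. The labels' descriptions of these libraries carry the code L5 (all of E12.5 and E13.5 and replicate 1 of E16.5) or L1 (replicate 2 of E16.5 and both P6w libraries), and do not say what it stands for. This code and stage cannot be told apart for P6w against E12.5.

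Sox11 had the largest change of the members. It stood at 591 and 597 CPM at E12.5, 138 and 131 in the E13.5 libraries, 266 and 213 in those of E16.5, and 2.27 and 6.70 at P6w (29 and 85 reads). No stages overlapped. Its mean at P6w was 132.6-fold below E12.5 (log2 difference -6.82 ± 0.28, edgeR, adjusted p = 3.39e-11), and the fall to E13.5 was -1.81 ± 0.21 (adjusted p = 1.28e-05). The return from E13.5 to E16.5 was 0.56 ± 0.20 (adjusted p = 0.0289), 0.68 within the libraries coded L5. It was not called without E13.5 replicate 1 (edgeR, adjusted p = 0.0895) or replicate 2 (adjusted p = 0.146), and with a term for gene length it was 0.09 (adjusted p = 0.718).

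Both neurofilament genes fell at E13.5, returned at E16.5 and were nearly lost at 6 weeks. Nefm stood at 23.0 and 22.9 CPM at E12.5, fell to 6.20 and 7.24 at E13.5, was back at 22.1 and 16.9 in the E16.5 libraries and ended at 0.313 and 0.788 at P6w, where 4 and 10 reads were counted. Nefl stood at 5.48 and 6.20, 2.47 and 1.67, 6.50 and 6.13, and 0.0781 and 0.630 CPM at the same stages, with 1 and 8 reads at P6w. Both genes had E13.5 below E12.5 and E16.5 without overlap. The log2 difference of E13.5 from E12.5 was -1.44 ± 0.22 for Nefm (edgeR, adjusted p = 9.80e-05) and -1.16 ± 0.37 for Nefl (adjusted p = 0.0183). That of E16.5 from E13.5 was 1.27 ± 0.22 (adjusted p = 0.000186) and 1.33 ± 0.37 (adjusted p = 0.00668), and 1.42 and 1.34 within the libraries coded L5. At P6w they lay -5.14 ± 0.32 (adjusted p = 3.85e-09) and -3.79 ± 0.52 (adjusted p = 1.89e-05) from E12.5. The fall of Nefl at E13.5 was not called without E12.5 replicate 1 (adjusted p = 0.0506), E12.5 replicate 2 (0.0884) or E13.5 replicate 2 (0.121), nor was its return without E13.5 replicate 2 (0.0557). Since the pair shares exonic bases, its values are not independent. Endothelial genes were also lower at E13.5 than at E12.5 and E16.5, and lowest at P6w: 4 of them summed to 155.3 to 166.7 CPM at E12.5, 52.70 to 53.31 in the E13.5 libraries, 91.25 to 107.5 in those of E16.5 and 16.49 to 19.54 at P6w. The 9 neural crest and glia genes summed to 15.84 to 17.98, 11.54 to 15.36, 57.03 to 58.11 and 74.22 to 74.60 CPM at the same stages, and Sox10, a defining factor of that lineage, had a mean of 5.41 CPM at E12.5 and at most 0.0899 CPM later. Their part in the results was not tested.

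Stmn2 stood at 5.79 and 6.87 CPM at E12.5, 3.73 and 3.39 in the E13.5 libraries, 4.13 and 2.34 in those of E16.5, and 0.469 and 0.315 at P6w, where 6 and 4 reads were counted. It was highest at E12.5, E13.5 and E16.5 overlapped, and P6w was lowest. The difference of P6w from E12.5 was -3.76 ± 0.45 (edgeR, adjusted p = 4.70e-06). That of E16.5 was -0.89 ± 0.32 (adjusted p = 0.0382), a call lost without E12.5 replicate 1 (adjusted p = 0.0910), E12.5 replicate 2 (0.198) or E16.5 replicate 2 (0.194). Here the interstitial genes summed to 828.8 to 907.2 CPM at E12.5 and 590.5 to 596.8 in the E13.5 libraries. They summed to 2665 to 3167 CPM in those of E16.5 and 305.6 to 334.9 at P6w. Their part in the levels of Stmn2 was not tested in the gonads either.

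Tubb3 went the other way. It went from 2.00 and 2.16 CPM at E12.5 over 2.38 and 3.75 (E13.5) and 4.27 and 6.13 (E16.5) to 14.5 and 9.93 at P6w, from 39, 39, 53, 74, 90, 97, 186 and 126 reads. Each stage lay above the one before it. The log2 difference from E12.5 was 1.38 ± 0.33 at E16.5 (edgeR, adjusted p = 0.00445) and 2.78 ± 0.33 at P6w (adjusted p = 4.41e-06). At E13.5 it was 0.88 ± 0.34 (adjusted p = 0.0462), a call lost without E12.5 replicate 1 (0.166), E12.5 replicate 2 (0.122) or E13.5 replicate 2 (0.300), and it was 0.40 with a term for gene length (0.372). P6w lay 1.40 ± 0.30 above E16.5 (adjusted p = 0.00112), and 1.11 within the libraries coded L1.

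Tubb2b fell over the stages, and Tuba1a had its lowest mean at E16.5. Tubb2b went from 83.1 and 92.8 CPM at E12.5 over 60.5 and 65.3 (E13.5) and 42.7 and 52.4 (E16.5) to 28.05 and 25.05 at P6w, each stage below the one before. It was -0.82 ± 0.15 from E12.5 at E16.5 (edgeR, adjusted p = 0.000497) and -1.50 ± 0.15 at P6w (adjusted p = 8.64e-07), while the fitted step to E13.5 of -0.15 ± 0.14 did not pass (adjusted p = 0.406) and passed with a term for gene length (-0.52, adjusted p = 0.00744). Tuba1a stood at 523 and 445, 501 and 507, 288 and 395, and 413 and 378 CPM. It fell from E13.5 to E16.5 by 0.82 ± 0.15 on the log2 scale (adjusted p = 0.000399), and P6w was not called against E12.5 (adjusted p = 0.737). Its difference of -0.43 ± 0.15 between E16.5 and E12.5 (adjusted p = 0.0371) was not called without E12.5 replicate 1 (0.271) or E16.5 replicate 1 (0.162). Against E16.5, P6w was 0.37 ± 0.15 higher (adjusted p = 0.0543), and the value rested on the E16.5 libraries: it was 0.66 without E16.5 replicate 2 (edgeR, adjusted p = 2.54e-05) and 0.12 without E16.5 replicate 1, within the libraries coded L1 (edgeR, adjusted p = 0.363).

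**Figure D2:**
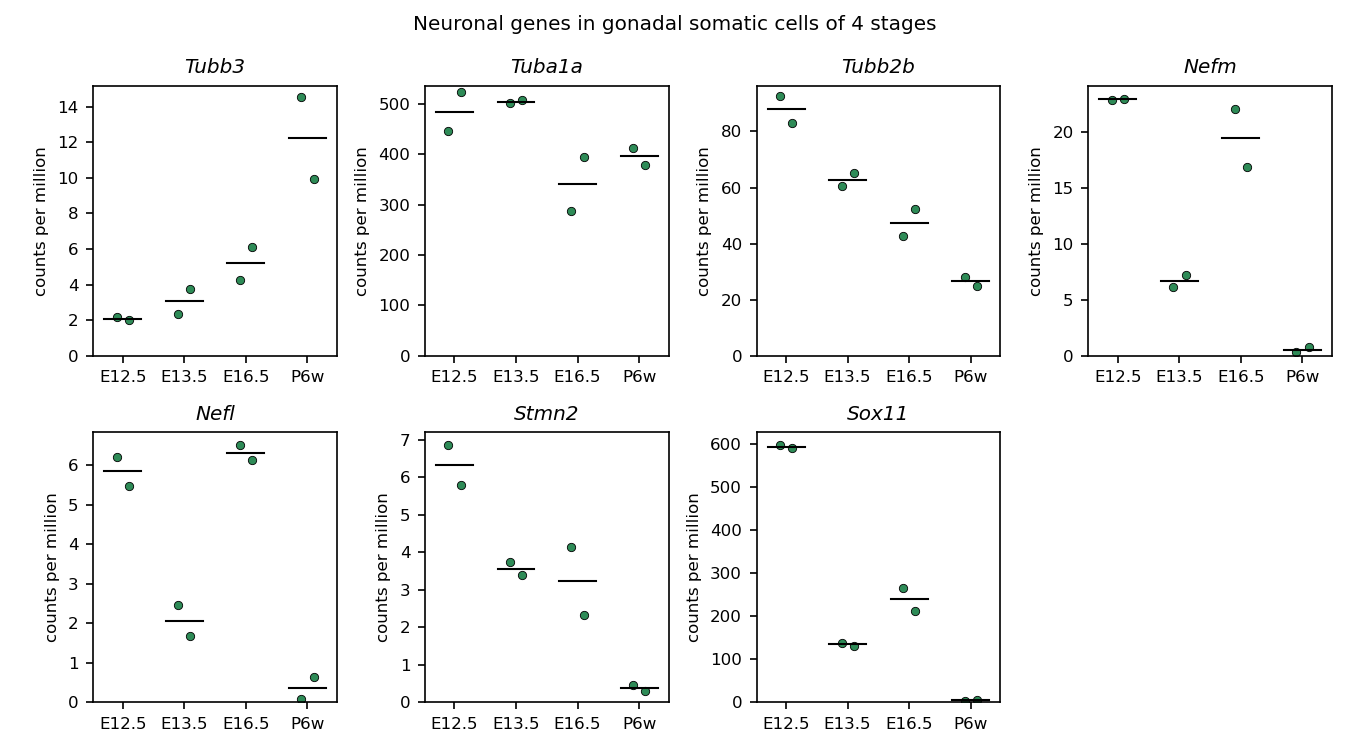
CPM of the 7 members, 1 panel per gene, in gonadal somatic cells of the 4 stages (E12.5 to P6w); each point is 1 library and each line a group mean (2 libraries). Nefm, Nefl and Sox11 dip at E13.5 and are lowest at P6w, while Tubb3 rises to 14.5 and 9.93 CPM at P6w.

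Of the 36 further pan-neuronal genes, 31 could be tested over the stages. At E13.5, 3 were called higher and 7 lower than at E12.5, where 45.9% of all genes tested were called. At E16.5, 9 were higher and 7 lower (37.6%), and at P6w 4 were higher and 11 lower (52.9%). The median log2 differences were 0.13, 0.03 and -0.48, against 0.025, -0.006 and -0.041 over all genes tested. Their summed level was 501.0 to 519.7 CPM at E12.5, 370.4 to 373.1 in the E13.5 libraries, 870.0 to 930.6 in those of E16.5 and 388.8 to 424.8 at P6w. Crmp1, a phosphoprotein of axon guidance, fell by 2.39 at E13.5 and fell by 5.66 at P6w on the log2 scale, and Gap43, a growth cone protein, fell by 0.87 and fell by 4.50 at the same stages. Syt1, a calcium sensor of synaptic vesicles, rose by 3.66 at E16.5. The repressor Rest, which keeps neuronal genes silent in other cells, had a mean of 116.5 CPM at E12.5 and fell to 41.5 CPM in the E13.5 libraries and 43.9 CPM in those of P6w.

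In the single V580 day 6 library most UMIs of Tubb3 and Nefm lay in a very small group of cells, in which all 7 members were highest. Of 15412 barcodes 15315 were kept, with a median of 9281 UMIs (unique molecular identifiers, 1 per captured RNA molecule), and they formed 12 clusters. A cluster of 66 cells was 0.431% of all (exact binomial 95% interval 0.333% to 0.548%). It was picked as the cluster with the highest mean log2 ratio of 18 neuron markers to the other cells, and is called neuron-like. The markers summed to 4863 UMI CPM there and to 24.1 in the other cells. UMIs of all 18 were also found in the clusters led by Igfbp5, Mki67 and Actg2, so only their level set these cells apart. Its median depth of 9749.5 UMIs was close to that of the library. Its leading genes other than the members were Sst, Ina, Igfbpl1, Crabp1, Rtn1, Lhx1, Cartpt, Elavl4, Crmp1 and Elavl3. Of these, Ina, Elavl4, Crmp1 and Elavl3 belong to the 18 markers. Clustering without the 7 members gave the same 66 cells. With 1 library there is no replicate, the clusters were made from these same cells, and no doublet caller was run, so all values below are descriptions of this library and their intervals cover counting error only.

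Levels are given as UMI CPM, the UMIs of a gene per 1000000 UMIs of the cells. Tubb3 gave 834 UMI CPM in the neuron-like cells (exact Poisson 95% interval 765 to 908) and 1.65 in all other cells, a 507-fold ratio. It had a UMI in 55 of 66 cells (83.3%) and in 0.990% of the others, and 66.6% of all its UMIs lay in the cluster. Nefm gave 2281 UMI CPM (2165 to 2401) against 5.65, with a UMI in 51 of the 66 cells and 61.4% of its UMIs in the cluster. Most UMIs of these 2 genes thus came from 0.431% of the cells.

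Stmn2 and Nefl were also high in the cluster, at lower levels than Nefm, and had most of their UMIs elsewhere. Stmn2 gave 843 UMI CPM (774 to 918) against 8.93, with a UMI in 47 of the 66 cells, but the cluster held 27.1% of its UMIs. The cluster led by Actg2, of 1482 cells with collagen genes, held 37.9% at 32.8 UMI CPM, and 11.9% of its cells had a Stmn2 UMI. Nefl gave 1057 UMI CPM (978 to 1140) against 10.1, with a UMI in 44 of the 66 cells and 29.2% of its UMIs in the cluster. A further 36.6% lay in the 928 cells of the Rbp4 cluster, at 36.6 UMI CPM and in 23.5% of the cells, and the Cited1 cluster reached 44.7 UMI CPM. In the Wfdc2 cluster, whose median depth of 15985 UMIs was above that of the neuron-like cells, Stmn2 and Nefl had a UMI in 2.00% and 2.66% of cells, taken here as the background.

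Both neurofilament genes reached their highest levels outside the neuron-like cells in the same 3 clusters. Nefm gave 17.0 UMI CPM in the Actg2 cluster, 13.06 in the Cited1 cluster and 13.03 in the Rbp4 cluster, and at most 5.74 in the others. Nefl gave 15.3, 44.7 and 36.6 there. Tubb3 had a second place of its own: the Rhox9 cluster of 660 cells gave 20.1 UMI CPM, 7.73% of its cells had a UMI, and it held 16.4% of all Tubb3 UMIs, whereas in the Wfdc2 cluster 0.475% of cells had one.

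Tuba1a, Tubb2b and Sox11 were widespread. Tuba1a had a UMI in 62 of the 66 cells and in 42.9% of the others, at 2817 and 117 UMI CPM. Tubb2b had one in 61 and in 34.4%, at 1566 and 70.5 UMI CPM. Sox11 had one in 54 and in 56.8%, at 1852 and 219 UMI CPM. Their ratios of 24.1, 22.2 and 8.45 were the lowest of the 7, and the cluster held 8.66%, 8.03% and 3.22% of their UMIs. Outside it, Sox11 was highest in the cluster led by Igfbp5 and Upk3b (320 UMI CPM) and in that led by Mki67 (308).

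**Figure D3:**
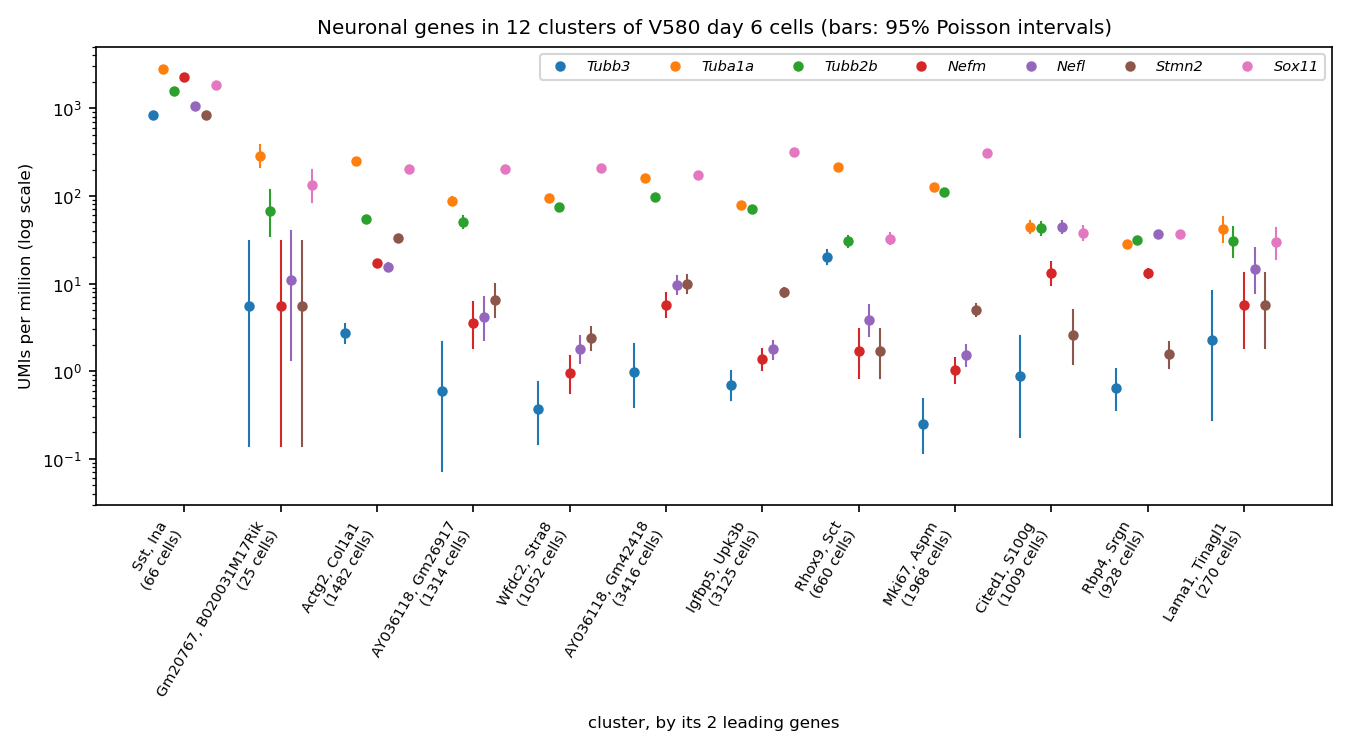
UMI CPM (log axis) of the 7 members in the 12 clusters of the V580 day 6 library, each cluster named by its 2 leading genes; points are the summed level of a cluster and bars the exact Poisson 95% interval. Every member is highest in the 66 neuron-like cells, from 834 UMI CPM for Tubb3 to 2817 for Tuba1a.

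The contrast between the cells was also seen at equal depth. With each cell thinned to 2000 UMIs, which left 11515 cells (3800 shallower cells were left out) and 49 neuron-like cells (17 left out), Tubb3 had a UMI in 75.5% of neuron-like cells and 0.201% of the others. The same shares were 65.3% and 0.968% for Nefm, 61.2% and 1.19% for Stmn2, and 59.2% and 1.44% for Nefl. They were 93.9% and 17.9% for Tuba1a, 93.9% and 11.98% for Tubb2b, and 87.8% and 31.9% for Sox11.

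The 4 rarer genes came together in single cells. All of Tubb3, Stmn2, Nefm and Nefl had a UMI in 39 cells, 37 of which were neuron-like, while 13779 cells had none of them and 1243 cells had exactly 1. All 7 members had a UMI in 32 cells, each of them neuron-like. After thinning, all 4 were found in 19 cells and all 7 in 18 cells, every one of them neuron-like.

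**Figure D4:**
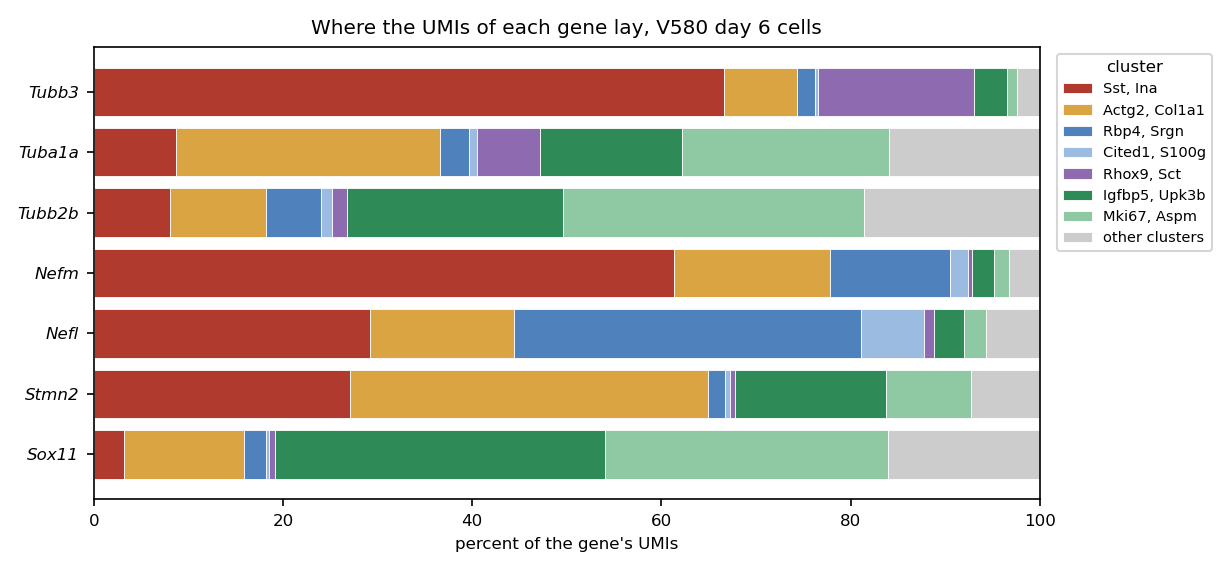
Stacked bars of the percent of each member's UMIs that came from each cluster of the V580 day 6 library. The neuron-like cluster holds 66.6% of the UMIs of Tubb3 and 61.4% of Nefm, 27.1% of Stmn2 and 29.2% of Nefl, and under 9% of Tuba1a, Tubb2b and Sox11.

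The same 66 cells held other neuronal genes, here too as a description. The 18 markers by which the cluster was picked, among them Elavl3, Ina, Stmn3 and Neurod1, all belong to the pan-neuronal genes or transcription factors below. They were high by choice, and the counts and sums of those lists are in part set by it. The share of all genes over 2-fold higher in the cluster is not given here. All 36 further pan-neuronal genes were over 2-fold higher there than in the other cells, and they summed to 7043 against 254 UMI CPM; Nefh, the heavy neurofilament chain, rested on 1 UMI. Of 24 neurogenic transcription factors 23 were over 2-fold higher, and Neurog3 was at 0. They summed to 2913 against 17.1 UMI CPM, with Lhx1 at 464, Onecut2 at 321, Neurod1 at 288, Neurog2 at 151 and Isl1 at 61.1. Of the relatives of the members, Ina gave 787 against 0.506 UMI CPM, Stmn3 260 against 0.154, Stmn1 1500 against 399 and Sox4 1435 against 474. By contrast, 2 of 13 other tubulin genes were over 2-fold higher, Tubb2a at 290 against 25.9 and Tubb4a at 47.0 against 3.54, whereas Tuba1b gave 506 against 538. Rest gave 50.2 against 158. The 14 neural progenitor genes summed to 325 against 83.2 UMI CPM, with 11 of them over 2-fold higher. Only 6 of the 14 had 10 or more UMIs in the cluster, and Sox1 rested on 1 UMI, so this count rests in part on very few molecules. The 9 neural crest and glia genes summed to 180 against 18.9 UMI CPM, and 3 of them were over 2-fold higher: Tfap2b gave 111 against 9.77, Tfap2a 45.5 against 1.18 and Foxd3 20.4 against 0.0555. The defining genes Sox10, S100b and Gfap were at 0. Interstitial genes summed to 160 against 618 UMI CPM, mesothelial genes to 132 against 454 and gonadal somatic genes to 221 against 659, with Nr5a1 at 0.

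The genes most like the members over the 12 clusters, by Pearson r of cluster means with the mean of the 7, were Stmn4 (0.974), Crmp1 (0.971), Igfbpl1 (0.970), Fam118b (0.969), Cabp1 (0.961), Srrm3 (0.961), Tagln3 (0.961), Dcx (0.960), Ina (0.959) and Scn3a (0.944). These 12 points share 1 library, and the value is set largely by the neuron-like cluster. In the bulk FPKM the members had no common neighbours. Over the 31 libraries Stmn2 had Ctgf (r = 0.972) and Shc1 (0.960) among its 3 most like genes, Tubb3 was most like Ctnnbl1 (0.948), Mrpl9 and Cmss1, and Nefm had Clmp (0.830) and Bloc1s4 (0.827) among its 3. Tuba1a was most like Polr2m (0.907), Dnajc9 and Puf60, Tubb2b most like Zfp423 (0.926), Nkain1 and Cdca3, and Sox11 most like Zfp266 (0.963), Bcl9 and Rbmx. Between the members themselves r ran from -0.852 for Stmn2 and Sox11 to 0.716 for Stmn2 and Nefm, over libraries that fall into separate experiments.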

How the data were processed

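No reads were aligned, and all values come from the processed tables. The table of the gonadal stages holds whole counts, which the authors made with Hisat2 on mm10 and featureCounts. For the treatments, the V580 days and E12.5_GC the authors deposited FPKM per gene symbol, without counts. The labels list Trim Galore, FastQC, HISAT2, SAMtools, featureCounts and RSEM, with no versions, and do not say which tool gave the FPKM. For the 10x sample the authors deposited UMI counts per Ensembl identifier (Chromium 3' version 2, Cell Ranger, mm10). The study describes 10x sequencing in triplicate, and 1 sample is analysed here. Of 48 samples, 8 stage libraries, 31 FPKM libraries and 1 10x library were used. Another table was left out because nothing ties its 10 columns of values to samples, so the germ cell libraries were not analysed here. The columns of the Vc and AM580 libraries have shortened names and were matched through titles and descriptions.

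Counts were filtered with filterByExpr, scaled with TMM and fitted in 1 model of 8 libraries (16398 genes) by the quasi-likelihood method of edgeR 4.0.16, under R 4.3.3. The tests of FPKM used limma-trend (limma 3.58.1) after a log2(FPKM+1) transform and took in the genes that reached 1 FPKM in 3 or more libraries of the days (11512 genes) or 2 or more of the treatments (10644 genes). P values were BH adjusted over all genes tested, and are two-sided. Fold changes on the log2(FPKM+1) scale understate the change of low genes. Whole fragments were recovered from FPKM and exon lengths, and 96.2% to 97.7% of the values under 20 fragments were whole within 0.05. Both pipelines were tested on simulated data: edgeR recovered 99% of 200 changed genes for P6w against E12.5 with 10 false calls among 15900 genes, and limma recovered 100% for V580 day 6 against day 4 with 0 false calls.

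Barcodes under 200 genes or over 40% mitochondrial UMIs (97) were dropped, and 32158 of 32285 identifiers had a symbol. Clusters came from scanpy 1.11.5 and leidenalg 0.10.2 (2000 variable genes, 20 components, 20 neighbours, resolution 0.5). Intervals are exact (binomial or Poisson, 95%, scipy 1.17.1) and cover counting error only. The reference, of build GRCm38 with GENCODE vM21, gave positions, exon lengths and sequences.

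The members and the lists were chosen with earlier results of these data known. Named were all 7 members. Of each list, up to 3 of the largest rises and 3 of the largest falls were eligible, among called genes whose higher group had a mean of 5 CPM or FPKM or more and did not overlap with the lower. As like genes, the 3 of highest Pearson r were named per member in bulk, and 10 over the clusters. Some items that these rules select are not reported here. The pairing of replicate numbers was checked: same-numbered libraries correlated at -0.096 to 0.175 (stages), -0.457 to 0.420 (days) and -0.517 to 0.285 (treatments) in their deviations from the group means, so the numbers were not taken to pair libraries.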

Additional observations from a re-analysis of the deposited data

Results flagged for a closer look

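For 5 results the effect of a treatment at 48 h differed from its effect at 24 h in the interaction test (limma-trend, BH over all genes tested). Stmn2 fell further at 48 h with Vc, by 0.41 on the log2(FPKM+1) scale (effects -0.07 at 24 h and -0.48 at 48 h, difference -0.41, adjusted p = 0.00416). With V580 the difference of Stmn2 was -0.62 (effects -0.23 and -0.85, limma-trend adjusted p = 1.11e-05). Both held without each library in turn. The difference of Nefm with V580 was -0.44 (effects 0.05 and -0.39, limma-trend adjusted p = 0.0191), and it was not called without Con_24h replicate 2, V580_24h replicate 2, Con_48h replicate 2 or V580_48h replicate 2 (limma-trend adjusted p = 0.0565 to 0.0965). The difference of Sox11 with AM580 was -0.29 (effects -0.33 and -0.61, limma-trend adjusted p = 0.0282), lost without Con_24h replicate 1, AM580_24h replicate 2, Con_48h replicate 1 or AM580_48h replicate 2 (limma-trend adjusted p = 0.0743 to 0.121). The difference of Tubb2b with AM580 was 0.18 (effects 0.47 and 0.66, limma-trend adjusted p = 0.0391), lost without Con_24h replicate 2, AM580_24h replicate 1, AM580_48h replicate 2 or either Con_48h library (limma-trend adjusted p = 0.0571 to 0.159). The level of Stmn2 in Con itself dropped between the times, so its effects were measured from different starting levels. No group had 4 or more libraries, so single libraries were not tested for standing apart.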

How the results depend on the processing

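Of the alternatives for single values of the members, 1509 kept direction and call, 53 gained a call, 32 lost one, 21 moved and 19 reversed, and of those for counts and shares 273 stayed and 38 moved. For FPKM a call here includes the 2-fold threshold. By the adjusted p alone, a further 44 alternatives counted as kept went from below to above 0.05, and 14 went from above to below. The gene length term, the fit of 2 stages alone, edgeR on recovered fragments and the cells without the neuron-like cluster were chosen after seeing the data.

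Without the fold threshold the number of members called was 5 for day 6 against day 4, 3 for day 8 against day 6, 4 for day 10 against day 8, 4 and 3 for AM580 against Con at 24 h and 48 h, 5 and 6 for V580, 1 for Vc at 48 h, 4 for V580 against AM580 at 48 h, 5 and 5 for V580 against Vc, 6 for Con at 48 h against 24 h, and 1, 2 and 2 for the time differences of Vc, AM580 and V580. With a 2-fold threshold 2 members were called for E16.5 against E12.5 and 2 against E13.5, and for the former 3 with the 2 stages alone. Leaving out 1 library gave 2 to 4 members for E13.5 against E12.5, 3 to 4 for E16.5 against E12.5, 3 to 5 for E16.5 against E13.5 and 1 to 2 for day 10 against day 8.

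Signs turned only for values that were not called or not tested. With the gene length term Tuba1a was -0.11 for E13.5 against E12.5. With quantile normalization, day 8 against E12.5_GC was -0.0090 for Nefm and 0.031 for Tuba1a. Leaving out 1 library gave these ranges against E12.5_GC: Tuba1a on day 6 -0.0066 to 0.42 and on day 8 -0.36 to 0.069, and on day 8 Tubb3 -0.25 to 0.64 and Nefm -0.29 to 0.31. For Tuba1a at P6w against E12.5 it gave -0.19 to 0.059. Among the treatments it gave -0.068 to 0.24 for Tubb3 with Vc at 24 h, -0.048 to 0.15 for Nefm with V580 at 24 h, -0.12 to 0.0091 for Sox11 with Vc at 48 h, -0.064 to 0.077 for Tubb3 with AM580 at 48 h, -0.028 to 0.043 for Tubb2b in V580 against AM580 at 48 h, and -0.066 to 0.17 for the time difference of Tubb3 with V580. The cause was not tested.

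With DESeq2 1.42.0, Tubb3 at E13.5 (adjusted p = 0.0677), Stmn2 at E16.5 against E12.5 (0.0978) and Sox11 at E16.5 against E13.5 (0.402) were not called, and Tuba1a at E13.5 was (0.0417). A replicate block added calls for Tuba1a at E13.5 against E12.5 (0.38, edgeR adjusted p = 0.0488) and at P6w against E16.5 (0.37, edgeR adjusted p = 0.0491). The block, and the lack of a filter on low values, also brought Tubb3, Nefm and Tuba1a in V580 against AM580 at 48 h to limma-trend adjusted p of 0.0507 to 0.0701, and the block brought Stmn2 in AM580 against Con at 24 h to 0.0528.

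In the 10x library, a stricter filter (1000 genes or more, 20% mitochondrial UMIs or less) left cells with a UMI in 1.58% (Tubb3), 4.31% (Stmn2), 3.88% (Nefm), 5.60% (Nefl), 52.8% (Tuba1a), 43.9% (Tubb2b) and 70.7% (Sox11) of all, and cells thinned to 2000 UMIs in 0.521%, 1.44%, 1.24%, 1.68%, 18.2%, 12.3% and 32.1%, against 1.35%, 3.57%, 3.21%, 4.57%, 43.2%, 34.7% and 56.9% of all kept cells. The neuron-like cells numbered 50 under that filter and 77, with all 66 among them, at a resolution of 1.0.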
